A study of Gallus gallus with 10 samples.

Results

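The Frizzled genes encode seven-pass cell surface receptors whose extracellular cysteine-rich domain binds Wnt ligands. The chicken gene table held all 10 members, FZD1 to FZD10, chosen by symbol from 25443 genes. Chicken embryos expressing exogenous Otx2, a homeodomain transcription factor of the anterior epiblast and brain, were compared with control embryos by RNA sequencing. Each sample was a pool of tissue from 4 embryos at st. 10-11. The samples formed 6 groups. The trunk region equivalent to the sinus rhomboidalis was taken with pCAGGS-mOtx2 and pCAGGS-EGFP (OT1, OT2), or as the control trunk (CT1, CT2). The midbrain-hindbrain region was taken with the same vectors (OH1, OH2), or with pCAGGS-EGFP and no pCAGGS-mOtx2 (CH1, CH2). The posterior area opaca, an extraembryonic tissue, was taken with both vectors (OA), or with pCAGGS-EGFP and no pCAGGS-mOtx2 (CA). In the paper's methods, control embryos received pCAGGS without an insert in place of pCAGGS-mOtx2. The vectors had been introduced into the epiblast from st. 4 to 5, followed by culture ex ovo. The paper reports EGFP together with Otx2 protein in nearly all tissue derived from the epiblast of such embryos. The pools may also have held cells without vector. CT1 is titled as without electroporation and CT2 as without exogenous OTX2, but the sample records of the control trunk contradict each other on electroporation. EGFP measured 1.12 TPM in CT1 and 15328 TPM in CT2. By this level CT1 was no control for the EGFP vector. Between OT and CT1, an effect of the vector and one of Otx2 cannot be told apart.

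Frizzled receptors work with LRP5 or LRP6 to stabilize β-catenin, which activates target genes together with TCF/LEF factors, or with ROR, PTK7 and VANGL proteins in the planar cell polarity branch, which orients cells within a tissue sheet. The members form 4 groups by sequence, FZD1/2/7, FZD5/8, FZD3/6 and FZD4/9/10. At these stages Wnt signals maintain the posterior growth zone and the sinus rhomboidalis, the open caudal neural plate that holds neuromesodermal progenitors, and they must be kept low for the forebrain to form.

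The total counts of the 10 samples ranged from 28606038 in CT1 to 40806402 in OA. Mouse Otx2 transcripts were at 334 and 529 TPM in OT, 97.4 and 160 TPM in OH, and 139 TPM in OA, and had 0 reads in every control sample. The sinus rhomboidalis markers summed to 872 to 947 TPM in CT and to at most 67.9 TPM in CH, and the midbrain-hindbrain markers summed to 97.3 to 114 TPM in CT and 240 to 268 TPM in CH. Most of the latter sum in CT was HOXB1, at 89.1 TPM in CT1 and 78.3 TPM in CT2, against 7.99 and 18.9 TPM in CH1 and CH2. Endogenous OTX2, a defining midbrain marker, had 3 and 15 reads in the CT samples, and in CH it was at 80.2 and 63.2 TPM. Every Frizzled gene had at least 92 reads in every sample, and all 10 passed the filter on low counts that kept 16611 genes. Where the level of a transcript differs between these tissue pools, a change in the number of cells that express it and a change in RNA per cell cannot be told apart.

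In the GRCg7w assembly the 10 genes lie on 7 chromosomes. FZD10 is at chr15:3444845-3447087, FZD7 at chr7:11220548-11224550, FZD8 at chr2:12789291-12792454 and FZD4 at chr1:188650771-188656434. FZD1 (chr2:22069279-22076115), FZD2 (chr27:2353984-2355959), FZD3 (chr3:105397822-105449808), FZD5 (chr7:11667966-11671935), FZD6 (chr2:129165363-129192641) and FZD9 (chr19:527597-529988) make up the rest. The single transcript of FZD2, FZD5, FZD7, FZD8, FZD9 and FZD10 is as long as the gene, so that these 6 genes consist of 1 exon. The strand setting of the counting is not stated. Whether reads of genes that overlap on opposite strands were told apart is therefore not known.

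Summed over the 10 members, Frizzled transcripts were at 222.5 and 264.3 TPM in OT, 294.3 and 265.4 TPM in CT, 424 and 436 TPM in OH, 413 and 379 TPM in CH, 164 TPM in OA and 141 TPM in CA. FZD7 was the most abundant member in OT, OH, CH, OA and CA. In CT the most abundant member was FZD10, whose lowest value lay above the highest value of FZD7. FZD10 made up 9.77% and 6.65% of the Frizzled transcripts in OT, 34.8% and 36.4% in CT, 5.00% and 4.92% in OH, and 5.09% and 5.29% in CH. FZD7 made up 33.7% and 36.0% in OT, and 20.3% and 19.7% in CT. The most abundant Frizzled transcript thus differed between OT and CT, and their summed levels differed little. The higher OT sample was close to the lower CT sample in the sum. The lowest member was FZD5 in every replicated group, and its range overlapped that of FZD8 in CT and, because of CH1, those of FZD4 and FZD9 in CH.

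**Figure D1:**
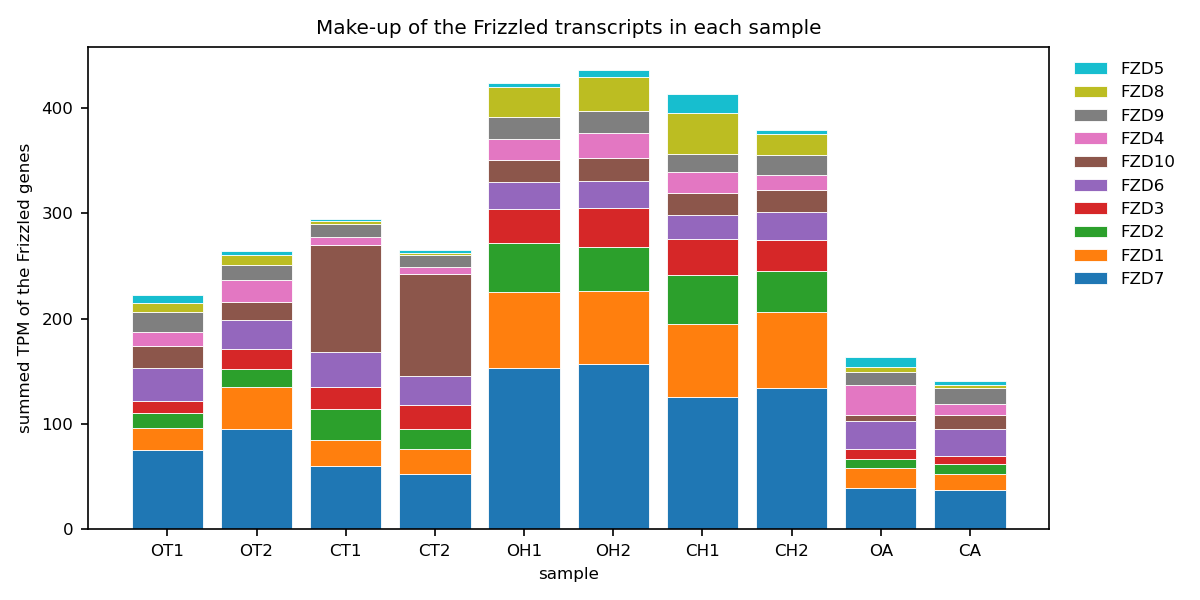
TPM of the 10 Frizzled genes stacked for each of the 10 samples, with the sample on the x axis and summed TPM on the y axis. The FZD10 segment makes up 34.8% and 36.4% of the bars of CT1 and CT2, and 9.77% and 6.65% of those of OT1 and OT2.

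The first comparison was between the trunk region with exogenous Otx2 and the control trunk, and asks which receptor genes differ where the sinus rhomboidalis would form. FZD10 was lower and FZD4, FZD7 and FZD8 were higher in OT than in CT. These 4 of 10 members were called by edgeR's quasi-likelihood test at an adjusted p under 0.05, and of all genes tested 6.73% were called. Of the members, 3 were called higher, against 4.29% of all genes, and 1 lower, against 2.44%. In TPM, both OT samples lay above both CT samples for 5 members and below them for 3 members, against 25.9% and 29.6% of all genes. The median log2 fold change was 0.43 over the 10 members and 0.03 over all genes tested. Each group holds 2 pools, and nothing states how the pools were separated. The p-values therefore measure only the spread between pools, which was estimated over the 8 samples of OT, CT, OH and CH together.

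FZD10, described in the chick spinal cord as a receptor for Wnt1 and Wnt3a, was at 21.7 and 17.6 TPM in OT, and at 102.4 and 96.6 TPM in CT. Both OT values were far below both CT values, and both CT samples were alike in spite of their contradictory records. The range of OT enclosed all 4 midbrain-hindbrain samples, with 21.2 and 21.5 TPM in OH and 21.0 and 20.1 TPM in CH. The fold change was 4.91-fold lower in OT (log2 fold change -2.29, SE 0.17, 95% interval -2.68 to -1.90, adjusted p = 0.0040 by edgeR). This p-value ranked 7 among the 16611 genes. FZD10 was called under all 16 alternative settings, with an adjusted p of at most 0.035.

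FZD4 and FZD9 belong to the same group of sequences as FZD10. FZD4, which also serves as the receptor for the non-Wnt ligand Norrin, was at 13.2 and 20.8 TPM in OT, and at 7.28 and 6.59 TPM in CT. Both OT samples were above both CT samples, with a wide gap between the OT samples themselves. The log2 fold change of FZD4 was 1.33 (SE 0.26, adjusted p = 0.0323 by edgeR). FZD9 was at 19.0 and 14.2 TPM in OT, and at 12.8 and 11.3 TPM in CT. Its OT values were also above its CT values, but its log2 fold change of 0.51 did not pass the test (95% interval 0.02 to 1.00, adjusted p = 0.170 by edgeR). With FZD10 lower and FZD4 higher, the summed level of these 3 genes was 53.3 ± 0.92 TPM in OT and 118.5 ± 5.66 TPM in CT (SD, n = 2 each).

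Among FZD1, FZD2 and FZD7, only FZD7 was called. FZD7, a receptor of early embryonic cells that is used in both branches of the pathway, was at 75.0 and 95.3 TPM in OT, and at 59.8 and 52.2 TPM in CT. The OT samples were both higher, and the log2 fold change of 0.64 (SE 0.13, adjusted p = 0.0342 by edgeR) was the smallest among the called members. FZD1 was at 21.4 and 39.8 TPM in OT, and at 24.5 and 24.2 TPM in CT. The OT samples lay on either side of CT, and FZD1 did not pass the test (log2 fold change 0.36, adjusted p = 0.374 by edgeR). FZD2 was at 14.3 and 17.4 TPM in OT, and at 30.1 and 19.0 TPM in CT. Both OT values were below both CT values, with a log2 fold change of -0.59 that did not pass the test (adjusted p = 0.185 by edgeR).

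FZD5 and FZD8 form the group with the lowest levels in the control trunk. FZD8 was at 7.96 and 9.32 TPM in OT, and at 2.34 and 2.50 TPM in CT. The samples of each group were close to each other and the groups did not overlap. The log2 fold change of FZD8 was 1.87 (SE 0.35, adjusted p = 0.0311 by edgeR), the largest positive value among the members. FZD5, which takes part in eye field formation in Xenopus, was at 7.81 and 3.99 TPM in OT, and at 1.62 and 2.70 TPM in CT. Both OT values were higher, but the spread within both groups was wide and the log2 fold change of 1.495 did not pass the test (95% interval -0.25 to 3.24, adjusted p = 0.246 by edgeR).

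FZD3 and FZD6, the members best known for planar cell polarity, were not called. FZD3 was at 11.3 and 19.1 TPM in OT, and at 21.0 and 22.9 TPM in CT. The OT samples were lower and far apart from each other (log2 fold change -0.50, adjusted p = 0.210 by edgeR). FZD6 was at 30.7 and 26.9 TPM in OT, and at 32.6 and 27.3 TPM in CT. The 2 groups overlapped, and the 95% interval of the log2 fold change was -0.35 to 0.33.

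The calls of FZD4, FZD7 and FZD8 were less firm than that of FZD10. Leaving out CT1, CT2, OH1 or OH2 ended all 3 calls, with the highest adjusted p without CT1 (0.176 for FZD4, 0.136 for FZD7 and 0.189 for FZD8). The call of FZD4 also ended without OT2 (adjusted p = 0.0636 by edgeR), that of FZD7 without CH1 or CH2 (0.0553 and 0.0543), and that of FZD8 without OT1 or OT2 (0.0501 and 0.0614). All 3 calls also ended in a fit of only the 4 samples compared, those of FZD4 and FZD7 with the replicate block and under limma on log2(TPM + 1), and that of FZD7 under limma on log2(TPM + 0.1). Their log2 fold changes stayed positive under all alternatives, from 1.05 to 1.59 for FZD4, from 0.54 to 0.77 for FZD7, and from 1.49 to 1.94 for FZD8. FZD1 passed the test without OT1 (log2 fold change 0.71, adjusted p = 0.0253 by edgeR).

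**Figure D2:**
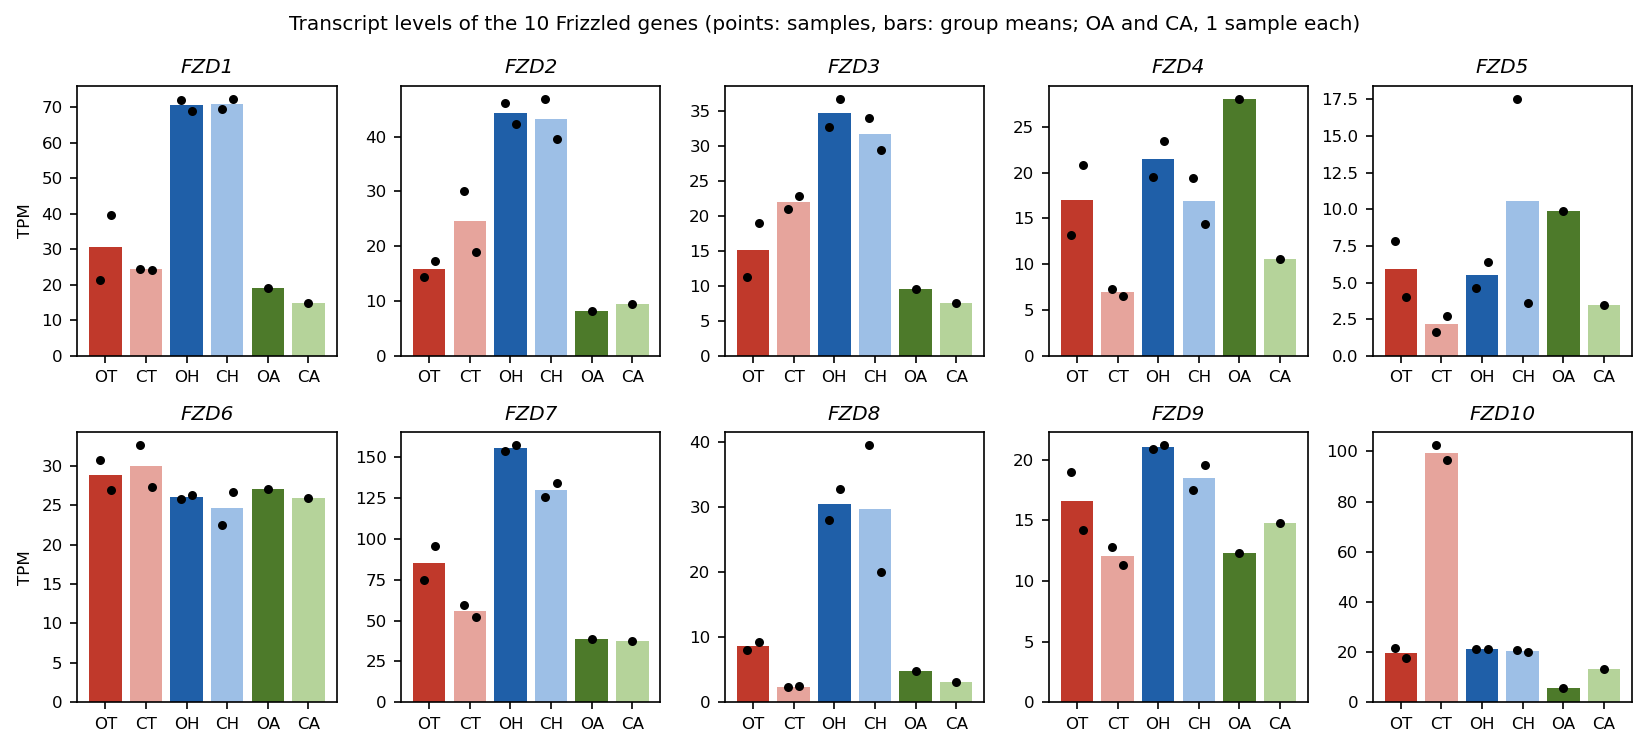
TPM of each Frizzled gene on the y axis in the 6 groups on the x axis, with points for samples and bars for group means (2 samples in OT, CT, OH and CH, 1 sample in OA and CA). FZD10 is between 96.6 and 102.4 TPM in CT and at most 21.7 TPM in all other samples, and FZD7, FZD1, FZD2 and FZD3 are highest in OH and CH.

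The tissue content of the trunk samples also differed. Of the 7 sinus rhomboidalis markers tested, 4 were called lower in OT and 0 higher, and their sum was 245 and 77.7 TPM in OT against 947 and 872 TPM in CT, with no marker at 0 reads in any of these samples. Of the 7 heart and muscle markers, 5 were called higher in OT, and their sum was 1649 and 1490 TPM in OT against 21.2 and 21.6 TPM in CT, again with none at 0. The extraembryonic endoderm markers summed to 12352 and 8581 TPM in OT and 2182 and 5509 TPM in CT, with 1 of 7 called higher. This was FOXA2, at 33.5 and 32.9 TPM in OT and 10.9 and 13.7 TPM in CT. FOXA2 was lower in the extraembryonic samples OA (14.1 TPM) and CA (22.2 TPM) than in OT, so that its call is no measure of extraembryonic tissue. The blood markers summed to 18348 and 2174 TPM in OT1 and OT2, and to 12269 and 6893 TPM in CT1 and CT2. Of these 6 markers, 0 were called, and the 2 OT samples differed widely from each other. Of the 8 midbrain-hindbrain markers, 4 were called higher and 2 lower in OT, and their sum was 46.0 and 89.2 TPM in OT and 114 and 97.3 TPM in CT, with 2 at 0 in CT1 and 1 in CT2. Most of the CT sum was HOXB1, a marker called lower in OT, at 17.0 and 27.6 TPM in OT and 89.1 and 78.3 TPM in CT. The sum therefore does not show the direction of the 4 markers called higher. These were GBX2, at 14.5 and 32.9 TPM in OT, OTX2, at 4.46 and 5.37 TPM, EN1, at 1.10 and 3.89 TPM, and PAX5. PAX5 was at only 0.095 and 0.053 TPM in OT and at 0 in both CT samples, so that its call rests on very low levels. The part of these tissues in the Frizzled differences was not tested.

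In the midbrain-hindbrain region, no Frizzled gene passed the test between OH and CH. The log2 fold changes ran from -1.01 for FZD5 to 0.31 for FZD4. With edgeR 0 of 10 members were called, against 0.0361% of all genes tested, and 0 members had an unadjusted p under 0.05. DESeq2 and limma also called 0 members. For 4 members, FZD4, FZD7, FZD9 and FZD10, OH1 and OH2 exceeded CH1 and CH2 in TPM, against 19.3% of all genes, and for 0 members they fell short of them, against 12.8%. In CPM the groups overlapped for FZD4 and FZD10. FZD4 was at 48.7 and 56.2 CPM in OH and at 50.1 and 35.1 CPM in CH. FZD10 was at 23.8 and 23.2 CPM in OH and at 24.4 and 22.0 CPM in CH. The median log2 fold change was 0.04 over the members and 0.01 over all genes.

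FZD7 was at 153.3 and 156.9 TPM in OH, and at 125.6 and 133.8 TPM in CH. The groups did not overlap, and the log2 fold change was 0.23 with a 95% interval of -0.06 to 0.53. FZD4 was at 19.5 and 23.4 TPM in OH, and at 19.4 and 14.4 TPM in CH, with an interval of -0.28 to 0.90. For FZD10 the log2 fold change was 0.03 with an interval of -0.35 to 0.40, so that a change of the size seen in the trunk lies outside it. The intervals of FZD1 (-0.59 to 0.52), FZD2 (-0.58 to 0.58), FZD3 (-0.43 to 0.63), FZD6 (-0.29 to 0.39) and FZD9 (-0.32 to 0.64) all enclosed 0, and none of them shows that the level was the same.

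FZD5 and FZD8 differed widely between the samples CH1 and CH2. FZD5 was at 4.63 and 6.41 TPM in OH1 and OH2, and at 17.5 and 3.60 TPM in CH1 and CH2. FZD8 was at 28.0 and 32.7 TPM in OH, and at 39.4 and 19.99 TPM in CH. CH1 was the highest and CH2 the lowest of the 4 samples for both genes. A list of 9 forebrain and eye field markers, written after this was seen, summed to 94.1 and 147 TPM in OH1 and OH2, and to 206.0 and 72.3 TPM in CH1 and CH2, the same order as for FZD5 and FZD8, with no marker at 0. SIX3, SIX6 and RAX, eye field transcription factors picked after their values were seen, were at 78.3, 14.4 and 12.7 TPM in CH1 and at 13.5, 0.24 and 0.18 TPM in CH2. The heart and muscle markers summed to 2304 and 4089 TPM in OH, and to 356 and 3671 TPM in CH. The part of these tissues in the values of FZD5 and FZD8 was not tested. Without CH1 the log2 fold change between OH and CH was 0.65 for FZD5 and 0.65 for FZD8, against -1.01 and -0.02 with it. Over all omissions of single samples it ran from -1.77 to 0.65 for FZD5 and from -0.47 to 0.65 for FZD8, so that its sign depended on the sample left out.

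**Figure D3:**
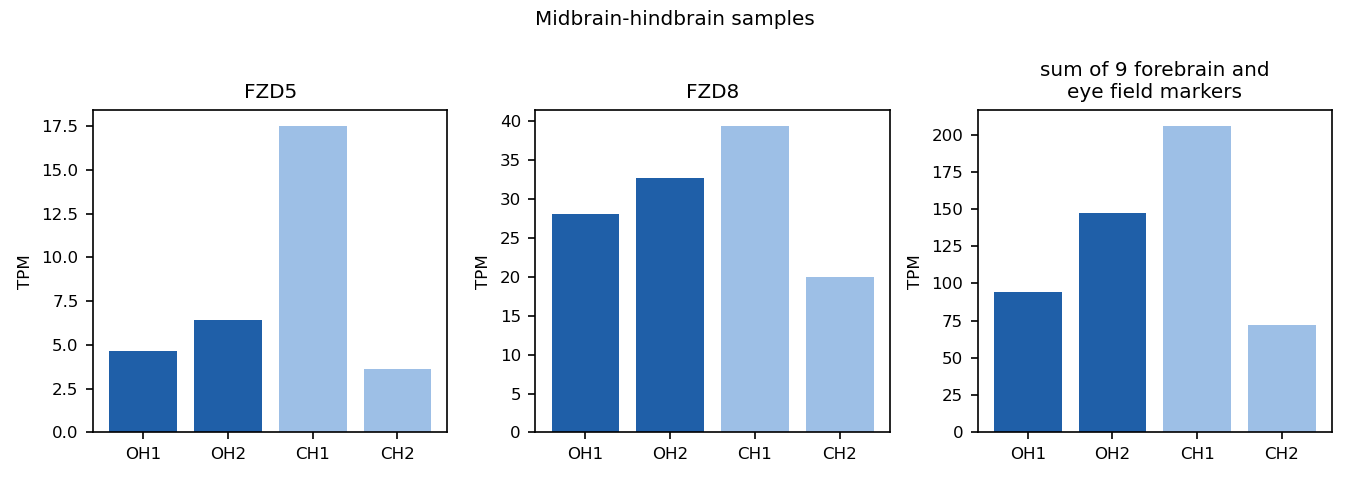
TPM of FZD5, of FZD8 and of the summed 9 forebrain and eye field markers (y axes) in the 4 midbrain-hindbrain samples (x axis), 1 bar a sample. CH1 is highest and CH2 lowest in all 3 panels, at 17.5 and 3.60 TPM for FZD5.

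The difference between OT and CT was then tested against that between OH and CH as an interaction. The 2 regions also differed in mouse Otx2, at 334 and 529 TPM in OT and 97.4 and 160 TPM in OH. Of the controls in this test, CT1 alone had almost no EGFP (1.12 TPM). The part of these differences in the interaction was not tested. FZD10 was the only member called (interaction -2.32 on the log2 scale, SE 0.23, 95% interval -2.86 to -1.78, adjusted p = 0.0250 by edgeR), 1 of 10 members against 0.223% of all genes, with 0.138% called lower and 0.0843% called higher. For FZD8 the interaction was 1.89 (95% interval 0.77 to 3.004, adjusted p = 0.175) and for FZD4 1.02 (0.19 to 1.86, adjusted p = 0.284), by edgeR. FZD5 had the widest interval (0.07 to 4.95). FZD8 was called by DESeq2 (adjusted p = 0.0041) and by edgeR without CH2 (2.34, adjusted p = 0.0361). In edgeR with all samples the trunk changes of FZD4, FZD7 and FZD8 were not shown to differ from those in the midbrain-hindbrain region. The call of FZD10 ended without CT1 (adjusted p = 0.137), CT2 (0.0746), OH1 (0.176), OH2 (0.177) or CH1 (0.0524) by edgeR, and with the replicate number as a block, under which 0 genes were called, or with the CT numbers crossed in the block. The interaction value stayed between -2.53 and -2.09 when single samples were left out.

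**Figure D4:**
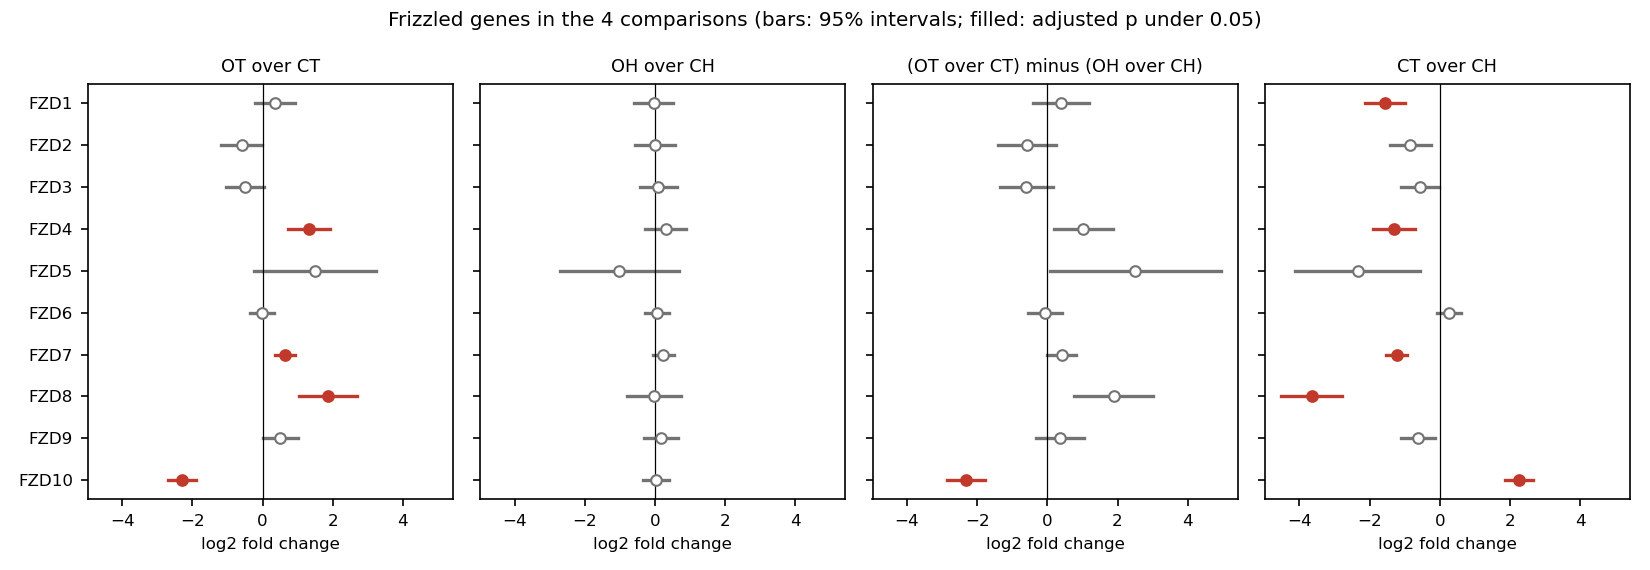
Log2 fold changes on the x axis for the 10 Frizzled genes down the y axis in the 4 comparisons, with bars for 95% intervals and filled red points for an adjusted p under 0.05. FZD10 is at -2.29 in OT over CT, 0.03 in OH over CH, -2.32 in their difference and 2.26 in CT over CH.

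The control trunk and the control midbrain-hindbrain region were compared to describe the normal regional levels. FZD10 was higher, and FZD1, FZD4, FZD7 and FZD8 were lower, in CT than in CH. These were 5 of 10 members called, against 7.78% of all genes, with 1 higher, against 2.91%, and 4 lower, against 4.88%. The 2 CT samples lay above CH for FZD6 and FZD10 and below CH for the other 8 members, against 25.0% and 24.0% of all genes. The same CT samples served in the comparison with OT, so that the 2 sets of fold changes are not independent.

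FZD10, with the values given above, was 4.79-fold higher in CT (log2 fold change 2.26, SE 0.17, adjusted p = 0.00141 by edgeR). FZD8 was at 2.34 and 2.50 TPM in CT, and at 39.4 and 19.99 TPM in CH. Although the CH samples differed from each other, both were far above CT (log2 fold change -3.64, SE 0.37, adjusted p = 0.00325 by edgeR), and without CH1 the value was -2.98 and still passed the test. FZD7 was at 59.8 and 52.2 TPM in CT, and at 125.6 and 133.8 TPM in CH (log2 fold change -1.22, SE 0.13, adjusted p = 0.00359 by edgeR). These 3 genes were called under all 16 alternatives.

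FZD1 was at 24.5 and 24.2 TPM in CT, and at 69.5 and 72.3 TPM in CH, with a log2 fold change of -1.55 (SE 0.24, adjusted p = 0.0123 by edgeR). The groups were well apart, and the call was nevertheless lost without CT1, CT2 or CH1 (adjusted p = 0.0805, 0.0747 and 0.0586 by edgeR). FZD4 was at 7.28 and 6.59 TPM in CT and at 19.4 and 14.4 TPM in CH (log2 fold change -1.31, SE 0.26, adjusted p = 0.0259 by edgeR). Its call was lost without CT1, CT2, OH1, OH2 or CH1, with adjusted p between 0.0529 and 0.133. FZD2, FZD3, FZD5, FZD6 and FZD9 did not pass the test of edgeR, with log2 fold changes of -0.84, -0.56, -2.34, 0.27 and -0.63. DESeq2 called FZD2 and FZD5 (adjusted p = 0.0132 and 0.0036). FZD5 was -0.68 without CH1, and passed the test at -3.10 without CH2 (adjusted p = 0.0288 by edgeR). FZD9 passed it at -0.65 without OT2 (adjusted p = 0.0483 by edgeR). In CT 6 of 7 heart and muscle markers and 4 of 9 forebrain and eye field markers were called lower than in CH. The blood markers summed to 12269 and 6893 TPM in CT and 1019 and 1146 TPM in CH, with 2 of 6 called higher in CT and none at 0, and 2 of 6 surface ectoderm markers were called higher. Their part in the regional differences was not tested.

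The posterior area opaca had 1 sample a group and no replicate check. FZD4 was at 28.1 TPM in OA and 10.5 TPM in CA, and FZD5 was at 9.91 TPM in OA and 3.45 TPM in CA. Both were over 2-fold higher in OA, and FZD10, at 5.92 TPM in OA and 13.5 TPM in CA, was 2.28-fold lower. These 2 members higher and 1 member lower compare with 8.32% and 4.61% of the 13427 genes with at least 1 TPM. The ratio of OA to CA in CPM, counts scaled to the total of each sample, was 2.56 for FZD5 (exact binomial 95% interval 2.21 to 2.97), 2.38 for FZD4 (2.21 to 2.56) and 0.392 for FZD10 (0.338 to 0.454), where the intervals cover counting error only. The other 7 members were within 2-fold, and the ratio of FZD6 and FZD7 was 1.04 in TPM and 0.93 in CPM. The extraembryonic endoderm markers summed to 43967 TPM in OA and 33111 TPM in CA with none at 0, and the blood markers to 21908 TPM in OA and 32223 TPM in CA. Their part in these ratios was not tested.

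The transcript table split 4 members into several transcripts. For FZD1, a predicted non-coding model took between 66.5% and 88.9% of the TPM of the gene over the samples, by the estimate of StringTie. The protein-coding model was at 2.69 and 10.6 TPM in OT, 3.03 and 4.49 TPM in CT, 9.37 and 11.8 TPM in OH, and 7.74 and 11.6 TPM in CH. The high FZD1 value of OT2 thus had a larger coding part than that of OT1. The protein-coding model lies within the span of the other, which leaves the split uncertain. For FZD3, FZD4 and FZD6 a single transcript held at least 95.9%, 99.6% and 90.6% of the TPM in every sample.

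The genes with the pattern most like each member were found by Pearson's r of log2(TPM + 1) over the 10 samples among 9908 genes with a mean of at least 5 TPM. For FZD10 these were CD320 (r = 0.99), CCNJL (0.98) and AXIN2 (0.98), the last a feedback inhibitor and a widely used target gene of β-catenin signaling. AXIN2 was at 27.9 and 16.4 TPM in OT, 92.7 and 90.1 TPM in CT, 28.7 and 30.9 TPM in OH, 28.1 and 26.9 TPM in CH, 9.89 TPM in OA and 15.7 TPM in CA. Like FZD10, it was high in the 2 CT samples and lowest in OA. For FZD8 the nearest genes were ANKRD6 (0.98), KAZALD1 (0.98) and SHISA2 (0.97), for FZD7 TMEM121, IRX3 and CYP26C1 (0.99 each), and for FZD1 THBS1, FLRT3 and FOXD2 (0.99 each). For FZD4 they were DRD4 (0.96), SEMA5B (0.93) and IL11RA (0.92), and for FZD5 ALDH1A3 (0.95), TUSC1 (0.92) and LMAN1L (0.90). FZD2 was followed most closely by EFNA2, GNAI2 and SLC4A3 (0.99 each), FZD3 by DLX6 (0.99), FRMD4A and LRIG2 (0.98 each), FZD6 by E2F8 (0.90), HDHD5 (0.89) and SLC25A26 (0.88), and FZD9 by FOXI3 (0.95), ZFPM1 (0.93) and DES (0.93). Between members, r was 0.96 for FZD1 and FZD7, 0.95 for FZD2 and FZD3, and -0.81 for FZD4 and FZD10. These values are descriptions, since samples of the same tissue share their region.

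**Figure D5:**
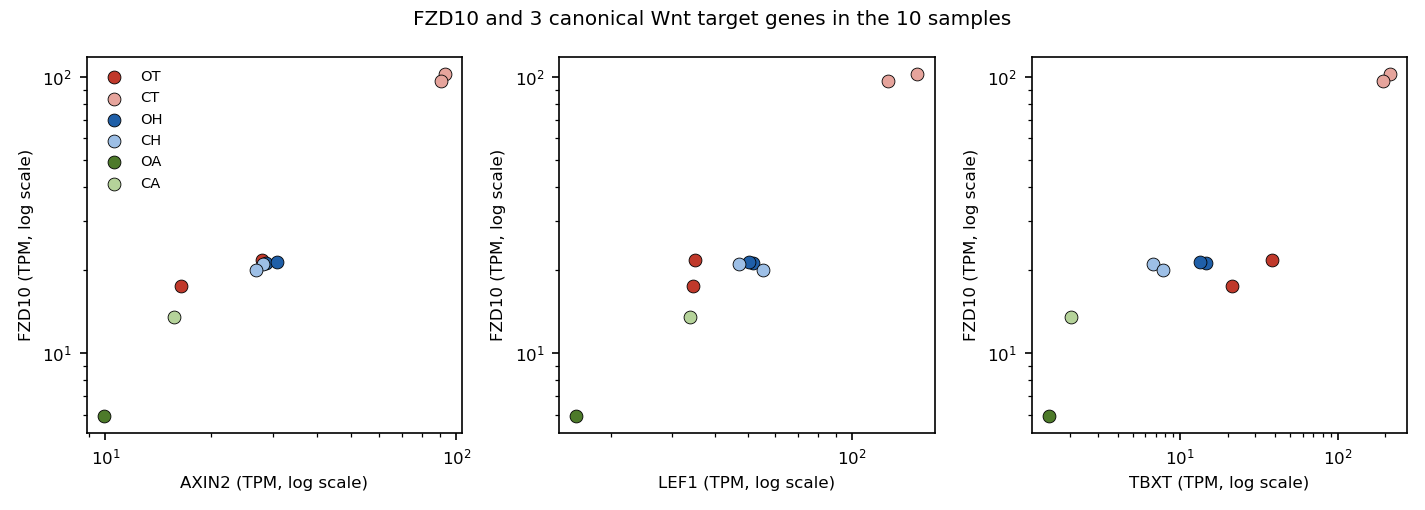
TPM of FZD10 (y axes, log scale) against AXIN2, LEF1 and TBXT (x axes, log scale) in the 10 samples, colored by group. The 2 CT samples are at the top right of each panel, at 96.6 and 102.4 TPM of FZD10, and OA is at the bottom left. Of the 9 canonical Wnt target genes tested, SP5, NKD1 and CCND1 are not shown and were not highest in CT. SP5 was at 43.0 and 55.8 TPM in CT and at 64.1 and 66.9 TPM in OH. In the same order, NKD1 was at 27.3 and 29.3 against 31.6 and 28.2 TPM, and CCND1 at 52.4 and 40.3 against 64.2 and 67.6 TPM.

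The other genes of the pathway were described from 7 lists ordered by role. Of the 17 Wnt ligand genes tested, 4 were called higher and 2 lower in OT than in CT. WNT5A, a ligand used mainly in the polarity branch, was at 43.2 and 20.6 TPM in OT, and at 242 and 181 TPM in CT (log2 fold change -2.68, adjusted p = 0.0198 by edgeR). WNT4 (log2 fold change 2.78, adjusted p = 0.0191) and WNT16 (3.06, adjusted p = 0.0356) were higher in OT by the same test. The median log2 fold change of the ligands was 1.27, against 0.03 over all genes, although their summed level was 205 and 137 TPM in OT and 531 and 482 TPM in CT. In CT against CH, 6 ligands were called higher and 5 lower, among them WNT5A (log2 fold change 3.99), WNT2B (-3.79) and WNT4 (-3.93).

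Among the 9 co-receptors and other Wnt receptors, ROR2, a receptor for Wnt5a, was at 18.1 and 18.5 TPM in OT and at 33.4 and 30.9 TPM in CT, and was called lower (log2 fold change -0.77, adjusted p = 0.0257 by edgeR). GPC3, a cell surface glypican, was called higher (1.68, adjusted p = 0.0223 by edgeR). In CT against CH the same 2 genes were called, ROR2 higher (0.89) and GPC3 lower (-2.69). Of the 9 genes for Frizzled turnover and R-spondins, 0 were called between OT and CT by edgeR and by limma and 2 by DESeq2, with 4 at an unadjusted p under 0.05, and RSPO1 alone was called, lower, in CT against CH (-4.27). Of the 13 secreted Wnt and Frizzled inhibitors tested, 3 were called higher and 1 lower in OT. SFRP1, a secreted protein with a Frizzled-like cysteine-rich domain, was at 38.4 and 65.6 TPM in OT, and at 12.1 and 14.7 TPM in CT (log2 fold change 1.99, adjusted p = 0.0153 by edgeR). DKK3 was higher (1.84) and the Wnt-binding inhibitor WIF1 lower (-1.20). In CT against CH, 1 inhibitor was called higher and 4 lower, including SFRP1 (-3.03), SHISA2 (-3.01), which retains Frizzled receptors inside the cell, and DKK3 (-1.95).

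Of 9 cytoplasmic transducers, 0 were called higher and 1 lower in OT, namely DVL2, a Dishevelled protein that binds Frizzled (log2 fold change -0.72, adjusted p = 0.0393 by edgeR), and in CT against CH 0 were called by edgeR, DESeq2 and limma, with 1 at an unadjusted p under 0.05. Of 10 planar cell polarity partners, 0 were called higher and 1 lower in OT. This was PRICKLE1, at 47.7 and 42.8 TPM in OT and at 107 and 114 TPM in CT (log2 fold change -1.29, adjusted p = 0.0104 by edgeR). In CT against CH, PRICKLE1 was called higher (1.77), and ANKRD6 (-2.13) and CELSR2 (-1.32) lower.

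Of 9 canonical Wnt target genes tested, 0 were called higher and 6 lower in OT, with a median log2 fold change of -1.98. LEF1, a transcription factor that works with β-catenin, was at 35.1 and 34.5 TPM in OT, and at 155 and 127 TPM in CT (log2 fold change -1.98, adjusted p = 0.0035 by edgeR). TCF7, of the same family, was at 4.195 and 4.03 TPM in OT, and at 21.8 and 18.0 TPM in CT (-2.23, adjusted p = 0.0044 by edgeR). TBXT, the T-box gene of the primitive streak and tail bud, was at 38.3 and 21.4 TPM in OT, and at 214 and 192 TPM in CT (-2.71, adjusted p = 0.0072 by edgeR). All 3 were clearly apart between the groups. TBXT, CDX2 and CDX4 stand in the list of sinus rhomboidalis markers as well, so that the lists are not separate measures. In CT against CH 6 targets were called higher, among them TBXT (4.82), LEF1 (1.47) and CDX4 (4.75).

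Between OH and CH, 0 of the 76 genes of the 7 lists were called by edgeR, DESeq2 or limma, and 7 had an unadjusted p under 0.05. In the interaction, LEF1 (-1.96, adjusted p = 0.0250), TCF7 (-2.55, adjusted p = 0.0272) and TBXT (-3.60, adjusted p = 0.0336) were called by edgeR, and 0 genes of the other 6 lists were. Over all 7 lists DESeq2 called 20 genes in the interaction, limma called 0 with a pseudocount of 1 and 2 with 0.1, and 31 had an unadjusted p under 0.05 in edgeR. As for FZD10, these 3 calls ended without CT1, CT2, OH1, OH2 or CH1, those of TCF7 and TBXT also without CH2, and all 3 with either replicate block and under limma on log2(TPM + 1), and the adjusted p was at most 0.186. Of the OT against CT calls, LEF1 and TCF7 held under all 16 alternatives, and PRICKLE1 and TBXT under 15, failing without CT1 (adjusted p = 0.0738 and 0.0578 by edgeR). WNT5A, SFRP1, WNT4 and GPC3 held under 14, 14, 13 and 13 of 16. The calls of DKK3, ROR2, WNT16, WIF1 and DVL2 held under 11, 10, 9, 9 and 8 of 16, and every one of the 9 genes lost its call without CT1, with an adjusted p of at most 0.238 over the alternatives. Of the CT against CH calls named, those of ROR2, SHISA2, DKK3 and CELSR2 ended without CT1, and also without CH1 for ROR2, CT2 for SHISA2, CT2 or CH2 for DKK3, and CT2 or CH1 for CELSR2, with an adjusted p of at most 0.0988. The others held under all 16 alternatives.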

How the data were processed

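Poly-A RNA of 10 samples, each of 4 pooled embryos, had been sequenced. The deposited counts are whole reads per gene without normalization, and the deposited TPM values were scaled by the authors with StringTie for transcript length and sample total. Reads had been mapped to GRCg7w with mouse Otx2 and EGFP added and NCBI Annotation Release 106. The aligner, versions and strand setting are not given in the sources used here. The 20 deposited columns of FPKM, which the authors also made with StringTie, were not used. Chromosome numbers come from matching gene identifiers to GRCg7b (10 of 10 members).

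The 8 trunk and midbrain-hindbrain samples were fitted together in edgeR 4.0.16 (R 4.3.3) with 1 coefficient per group, TMM normalization, the default low-count filter, the quasi-likelihood test and Benjamini-Hochberg adjustment over 16611 genes, with a threshold of 0.05. Total counts were 28606038 to 39638219 in these 8 samples and the biological coefficient of variation was 27.9%. Log2 fold changes come from counts and levels from TPM. OA and CA entered no test, and a 2-fold difference was described.

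All 10 members are named in OT against CT, OH against CH and CT against CH. In the interaction and in OA against CA, only some are named in the text. Of each list of pathway genes, at most the 3 called genes with the smallest p are named. For each member the 3 most correlated genes are named. The members and lists were chosen with earlier results of these data known. Listed genes not matched by symbol (WNT1, WNT8C, WNT10B, DKK1, KREMEN2, DVL3, GSK3B, NKD2, and the markers EGR2, HOXB9, GATA1 and KRT19) were not analysed here. Alternatives were DESeq2 1.42.0, RLE normalization, no filter, limma 3.58.1 on log2(TPM + 1) and log2(TPM + 0.1), a replicate block, a fit of the 4 samples compared alone, and the omission of single samples. A block with the CT numbers crossed and the forebrain and eye field list were added after seeing the data. The endothelial, blood and surface ectoderm lists had 0, 0 and 3 markers called by edgeR in OT against CT, the last 3 lower, with 2, 0 and 4 called by DESeq2 and 2, 0 and 4 at an unadjusted p under 0.05.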

Additional observations from a re-analysis of the deposited data

Results flagged for a closer look

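The difference of FZD10 between samples with and without exogenous Otx2 was called unlike in the trunk and the midbrain-hindbrain region, by a test of the interaction itself. The change in the trunk minus that in the midbrain-hindbrain region was -2.32 on the log2 scale (adjusted p = 0.0250 by edgeR). The call held under 8 of 15 alternatives. It was lost with the replicate block, also with the CT numbers crossed, and without CT1, CT2, OH1, OH2 or CH1, with an adjusted p of at most 0.177. FZD10 was lower in both OT samples than in both CT samples, and in OH1 and OH2 it was slightly above CH1 and CH2 in TPM and overlapped them in CPM. The trunk and the midbrain-hindbrain region also differed in the level of mouse Otx2 and in the EGFP of their controls. The part of these in the interaction was not tested.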

How the results depend on the processing

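OT against CT gave 4 Frizzled calls, with 2 under limma on log2(TPM + 1) and 2 with the replicate block (FZD8 and FZD10 in both), 1 with only its 4 samples (FZD10), and 1 to 4 when single samples were left out. The interaction gave 1, with 2 by DESeq2 (FZD8 and FZD10), 0 with the replicate block, 0 with the CT numbers crossed in the block, and 0 to 2 when single samples were left out. CT against CH gave 5, with 7 by DESeq2 (FZD2 and FZD5 in addition) and 3 to 6 when single samples were left out. OH against CH gave 0 under every setting. Over all genes, DESeq2 called 2643 in OT against CT, 60 in OH against CH, 799 in the interaction and 2426 in CT against CH, where edgeR called 1118, 6, 37 and 1293. With only the samples of the comparison these were 135 in OT against CT, 0 in OH against CH and 1351 in CT against CH. For the interaction, limma called 3 with a pseudocount of 1 and 8 with 0.1, and the block 0, or 3 with the CT numbers crossed. When single samples were left out, the counts were 53 to 1039 in OT against CT, 0 to 29 in OH against CH, 0 to 258 in the interaction and 416 to 1785 in CT against CH. The fits of only the samples compared and those without single samples hold fewer samples, and the other fits hold all 8. The cause of the differing counts was not tested.

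No Frizzled value that passed the test changed sign. Among those that did not pass, FZD6 in OT against CT was 0.0084 by DESeq2 and 0.012 with RLE. FZD8 in OH against CH was 0.0041 without a filter, 0.10 and 0.11 under limma with pseudocounts of 1 and 0.1, 0.020 with the block and 0.029 with the CT numbers crossed. FZD2 in OH against CH was -0.00099 with RLE, -0.0029 with the CT numbers crossed and -0.0014 with only its 4 samples. When single samples were left out, the ranges in OT against CT were -0.069 to 0.71 for FZD1 and -0.15 to 0.16 for FZD6. In OH against CH they were -0.078 to 0.011 for FZD1, -0.18 to 0.21 for FZD2, -0.060 to 0.28 for FZD3, -1.77 to 0.65 for FZD5, -0.47 to 0.65 for FZD8 and -0.074 to 0.14 for FZD10. In the interaction they were -0.027 to 0.74 for FZD1 and -0.20 to 0.12 for FZD6.

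The differences between replicates 1 and 2 had correlations of -0.15 to 0.14 between groups. The sample labels name no pairing, and these correlations cannot decide whether samples with the same number were paired. The crossed block was run because OT and CT gave -0.15. With 2 pools a group and 4 residual degrees of freedom, the OT against CT changes of FZD2, FZD3, FZD5 and FZD9 were not resolved at their spread. Size alone did not decide this. FZD5, at 1.495 with an SE of 0.74, was not called, and FZD4, at 1.33 with an SE of 0.26, was.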
